A study of Rattus norvegicus with 36 samples.

Results

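Gad1, Gad2 and Slc32a1 are the genes that make and package GABA, the main inhibitory transmitter of the brain. They were chosen by Ensembl gene ID, ENSRNOG00000000007 for Gad1, ENSRNOG00000018200 for Gad2 and ENSRNOG00000015393 for Slc32a1, and are 3 of the 31546 gene IDs in the count tables. All 3 were among the 16029 genes tested. RNA sequencing covered polyA-selected RNA of the nucleus accumbens, the part of the ventral striatum best known for reward, from 9 Sprague-Dawley rats aged 8 weeks, 3 in each of the groups labelled Vulnerable, Non Vulnerable and Saline. Both cocaine groups had 4 injections of cocaine at 20 mg/kg in a place preference design, in which a drug is paired with one of the compartments of a box, with sessions of 20 min set 6 h apart. Saline rats had 4 injections of physiological serum on the same alternation, and the preference test of all rats followed a day after conditioning ended. The series compares rats that did and did not express the preference with saline rats, but the labels do not tie Vulnerable to either outcome, so the label names are kept. The tissue label names the nucleus accumbens alone, and the protocol for extracting RNA adds the caudate putamen, whose projection neurons are GABAergic too.

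GABA is made from glutamate by glutamate decarboxylase, which exists as GAD67, encoded by Gad1, and GAD65, encoded by Gad2. GAD67 is found throughout the cell and supplies most basal GABA, while GAD65 is concentrated at nerve terminals. Slc32a1 encodes VGAT, the vesicular transporter that loads GABA, and glycine where it is used, into synaptic vesicles. In the accumbens the projection neurons and most interneurons are GABAergic, and the main neurons of the region are known to express all 3 genes. In bulk tissue, fewer cells of a type and less RNA per cell cannot be told apart.

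The genes lie on chromosomes 3 (Gad1 and Slc32a1) and 17 (Gad2) in RefSeq's annotation of the GRCr8 build, with spans of 40840, 4470 and 62529 bases. None of the 3 spans overlapped another gene of that annotation. The sequence just before the first annotated transcript of each gene is shown as a description. No binding or methylation was measured, and shared control of the 3 genes was not tested. Bases are given 5′ to 3′ on the plus strand, with matches to the searched motifs in capitals, for Gad1 at chr3:75777202-75777259, for Gad2 at chr17:89671468-89671717 and for Slc32a1 at chr3:167686995-167687244.
Gad1: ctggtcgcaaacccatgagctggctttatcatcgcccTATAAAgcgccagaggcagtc
Gad2: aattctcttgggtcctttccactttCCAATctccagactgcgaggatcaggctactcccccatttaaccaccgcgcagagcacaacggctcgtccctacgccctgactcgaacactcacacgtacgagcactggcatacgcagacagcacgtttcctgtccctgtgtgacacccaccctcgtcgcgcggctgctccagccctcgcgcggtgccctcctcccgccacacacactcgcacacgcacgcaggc
Slc32a1: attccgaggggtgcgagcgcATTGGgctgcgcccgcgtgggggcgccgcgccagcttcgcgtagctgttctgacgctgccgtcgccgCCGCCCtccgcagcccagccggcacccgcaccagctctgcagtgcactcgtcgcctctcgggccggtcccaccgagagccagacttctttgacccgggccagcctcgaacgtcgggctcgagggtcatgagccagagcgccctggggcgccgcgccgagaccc
The Gad1 stretch holds a TATA box (TATAAA) that begins 21 bases before the first annotated base of the gene, and no such match was found before Gad2 or Slc32a1. Of 33469 RefSeq promoter windows of 250 bases, 12.9% held TATAAA on either strand. The CCAAT box (CCAAT) occurred once before Gad2 and once, on the minus strand, before Slc32a1, and was present in 34.0% of windows. The GC box (GGGCGG) occurred once on the minus strand before Slc32a1, against 30.5% of windows. The 250 bases before the start site that the promoter table gives for Gad1, which lies 192 bases inside the gene, also held 1 GC box on the minus strand. No window of the 3 genes held the cAMP response element (TGACGTCA), an AP-1 site (TGACTCA) or the homeodomain core (TAATTA), which occurred in 1.59%, 4.05% and 4.86% of all windows. GC content of these windows was 68.4% for Gad1, 62% for Gad2 and 73.6% for Slc32a1, where the median of all windows was 51.2%. Only 58 bases of the Gad1 window lie before the gene, so sequence further upstream of Gad1 was not searched. The windows of Gad2 and Slc32a1 lie wholly before the gene. A match describes letters in a window and is not a site.

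Counts were summed over the 4 technical replicates of a rat, and total counts per rat ran from 41213813 to 64081679. Levels are CPM, counts scaled to a common library total, after scaling by the trimmed mean of M-values (TMM), which adjusts for a few genes that take many reads. Non Vulnerable rat 1 stood apart from the other rats: its 10 most counted genes took 18.2% of its counts, against 10.5% to 13.3% in the others, and its scaling factor was the lowest, at 0.901 against 0.962 to 1.08. Each comparison of the levels with Non Vulnerable rats is therefore also given without it. Markers of striatal neurons, interneurons, glia and neighbouring regions could not be read, since the files hold gene IDs without names and the RefSeq table used here paired 0 of them with a symbol. The labelled region and cell makeup were therefore not checked, and the part of tissue makeup in the results was not tested.

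Of the 3 genes, Slc32a1, the vesicular transporter, was the one for which Non Vulnerable rats lay clear of the other groups by TMM-scaled CPM. Slc32a1 stood at 223, 261 and 325 CPM in Non Vulnerable rats 1 to 3. It stood at 142, 201 and 197 CPM in Vulnerable rats, and at 147, 191 and 221 CPM in Saline rats. The 3 Non Vulnerable rats were the 3 highest of the 9, although Non Vulnerable rat 1 lay above Saline rat 3 only narrowly, at 222.6 against 221.4 CPM. The Non Vulnerable mean was 269.8 ± 51.9 CPM, against 186.6 ± 37.5 for Saline and 179.9 ± 33.1 for Vulnerable rats (SD, n = 3). The Saline and Vulnerable means differed by less than their SDs, and the Non Vulnerable mean was above both by more than the SDs.

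By the fitted means, the Slc32a1 level of Vulnerable rats was 0.667 times that of Non Vulnerable rats, a log2 fold change of -0.58 with SE 0.199 and a 95% interval of -1.04 to -0.13. It did not pass the test over all genes, narrowly (edgeR adjusted p = 0.0524, unadjusted p = 0.0169). In this comparison 31.5% of all genes passed, 45.3% had an unadjusted p under 0.05 and 24.9% were lower in Vulnerable rats without overlap of the groups, so a difference of this kind was common among all genes. A larger absolute log2 fold change was found for 23.5% of genes. The call depended on the tool and on single rats: the DESeq2 adjusted p was 0.0244 with a log2 fold change of -0.55, and without Non Vulnerable rat 1 the edgeR adjusted p was 0.0334 with a log2 fold change of -0.69. Without Vulnerable rat 1, the lowest of the 9, the log2 fold change was -0.39 (edgeR adjusted p = 0.174).

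Against Saline rats, the fitted Slc32a1 level of Non Vulnerable rats was 1.45 times as high, with a log2 fold change of 0.53, SE 0.199 and a 95% interval of 0.08 to 0.98. This did not pass the test over all genes (edgeR adjusted p = 0.102, unadjusted p = 0.0259), in a comparison where 14.7% of genes did, 32.7% had an unadjusted p under 0.05 and 17.4% were higher in Non Vulnerable rats without overlap. DESeq2 gave a log2 fold change of 0.52 and an adjusted p of 0.0522. The log2 fold change was 0.63 without Non Vulnerable rat 1 (edgeR adjusted p = 0.0609) and 0.33 without Saline rat 1 (edgeR adjusted p = 0.321). Vulnerable and Saline rats overlapped, and their fitted difference was -0.05 with a 95% interval of -0.50 to 0.40 (edgeR adjusted p = 0.978). Its sign turned without Vulnerable rat 1 (0.0933) or Saline rat 3 (0.118). In this comparison 0% of all genes passed with edgeR, 5.03% (807 of 16029) had an unadjusted p under 0.05, and DESeq2 called 30 genes. The comparisons with Non Vulnerable rats share those rats, as the comparisons with Saline share the Saline rats.

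The non-overlap of Slc32a1 rested on the scaling between rats. With library totals alone, the levels of rats 1 to 3 were 201, 257 and 313 CPM for Non Vulnerable, 153, 196 and 206 for Vulnerable and 148, 194 and 231 for Saline rats. On that scale Non Vulnerable rat 1 lay below Vulnerable rat 3 and Saline rat 3, so the groups overlapped. The log2 fold change of Vulnerable from Non Vulnerable rats was then -0.47 (edgeR adjusted p = 0.112), while the median of all genes moved by 0.12 toward higher values in Vulnerable rats.

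**Figure D1:**
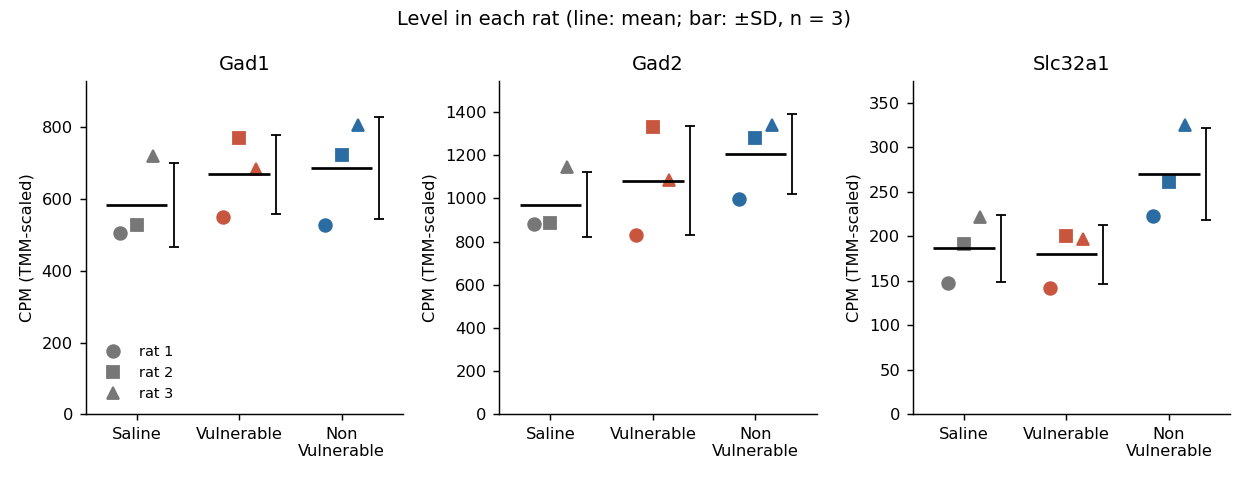
Level of Gad1, Gad2 and Slc32a1 in TMM-scaled CPM (linear axis from 0) in each of the 9 rats, by group; symbols mark the labelled rat number, lines the group mean and bars ± SD (n = 3). The Non Vulnerable rats are the 3 highest for Slc32a1, from 223 to 325 CPM, whereas the groups overlap for Gad1 and Gad2.

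The 2 decarboxylase genes did not separate the groups. Gad1 stood at 551, 771 and 684 CPM in Vulnerable rats 1 to 3, at 529, 724 and 808 CPM in Non Vulnerable rats and at 505, 528 and 719 CPM in Saline rats. Each group spanned most of the range of all 9 rats, with the highest value in Non Vulnerable rat 3 and the lowest in Saline rat 1. The mean was 686.9 ± 143 CPM for Non Vulnerable, 668.8 ± 111 for Vulnerable and 584.3 ± 118 for Saline rats (SD, n = 3), and all 3 means differed by less than these SDs.

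The fitted log2 fold change of Gad1 in Vulnerable against Non Vulnerable rats was -0.04 with SE 0.201 and a 95% interval of -0.49 to 0.42 (edgeR adjusted p = 0.898). This was close to the median of all genes, -0.04, and moved with it under other scalings: to 0.011 (median 0.0111) when scaling left out the 10 most counted genes, and to 0.0691 (median 0.0887) with library totals alone. Leaving out Non Vulnerable rats 1 and 3 in turn gave -0.18 and 0.0941. Leaving out Vulnerable rats 1 and 2 in turn gave 0.137 and -0.15, so the sign rested on single rats. Without Saline rat 1 or 3, which are not in the comparison but enter the scaling and the spread, it was 0.0116 and 0.0107. Against Saline the log2 fold change was 0.23 in Non Vulnerable rats (95% interval -0.22 to 0.69, edgeR adjusted p = 0.457). Leaving out Non Vulnerable rats 1 and 3 in turn gave 0.37 and 0.10. Leaving out Saline rats 1 and 3 in turn gave 0.0849 and 0.39. In Vulnerable rats it was 0.19 against Saline (95% interval -0.26 to 0.65, edgeR adjusted p = 0.918), with 0.32 and 0.0798 without Vulnerable rats 1 and 2, and 0.0965, 0.13 and 0.40 without Saline rats 1, 2 and 3. These intervals do not show that the groups were alike: they include differences up to their ends.

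Gad2, whose product sits at terminals beside the vesicles that VGAT fills, stood at 829, 1332 and 1085 CPM in Vulnerable rats. Its levels were 997.7, 1280 and 1342 CPM in Non Vulnerable rats and 883.8, 886.2 and 1146 CPM in Saline rats. Groups overlapped in every comparison, and Vulnerable rats held both the lowest of the 9 values and the second of the 9 in order from the top. The order of the means was Non Vulnerable, at 1207 ± 184 CPM, Vulnerable, at 1082 ± 251, and Saline, at 972 ± 151 (SD, n = 3), and neighbours in this order differed by less than their SDs. The Non Vulnerable and Saline means differed by more than either SD.

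The fitted log2 fold change of Gad2 was -0.16 in Vulnerable against Non Vulnerable rats (SE 0.196, 95% interval -0.60 to 0.29, edgeR adjusted p = 0.562). Without Vulnerable rat 1 it was 0.0551, of the opposite sign (edgeR adjusted p = 0.839), and with Vulnerable rat 2 left out it was -0.33. Leaving out Non Vulnerable rats 1 and 3 in turn gave -0.26 and -0.0738. Non Vulnerable rats stood above Saline rats by 0.31 on the log2 scale (95% interval -0.13 to 0.76, edgeR adjusted p = 0.305), by 0.41 without Non Vulnerable rat 1 and by 0.19 without Saline rat 1. For Vulnerable against Saline rats the log2 fold change was 0.15 (95% interval -0.29 to 0.60, edgeR adjusted p = 0.927), and it was 0.31 without Vulnerable rat 1 and -0.022 without Vulnerable rat 2 (edgeR adjusted p = 1). Without Saline rats 1, 2 and 3 it was 0.0869, 0.093 and 0.32.

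Over the set, 0 of 3 members passed the test in any of the 3 comparisons with edgeR, where 31.5% (Vulnerable against Non Vulnerable), 14.7% (Non Vulnerable against Saline) and 0% (Vulnerable against Saline) of all genes did. An unadjusted p under 0.05 was found for 1 of 3, Slc32a1, in both comparisons with Non Vulnerable rats, against 45.3% and 32.7% of all genes, and for 0 of 3 in Vulnerable against Saline, against 5.03%. These counts were near the shares over all genes. Medians of the fitted log2 fold changes over the 3 members were -0.16 for Vulnerable against Non Vulnerable, 0.31 for Non Vulnerable against Saline and 0.15 for Vulnerable against Saline. The same medians over all 16029 genes were -0.04, 0.02 and 0.0004. All 3 members had higher fitted levels in Non Vulnerable than in Saline rats, as had 8391 of the 16029 genes tested. The members varied together between rats, so these are not 3 separate cases.

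**Figure D2:**
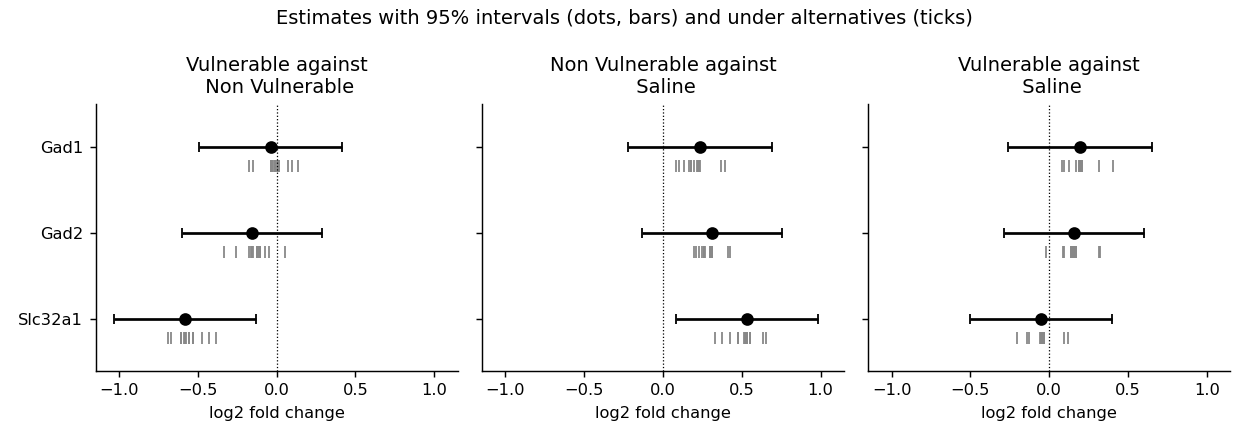
Fitted log2 fold change (x axis) of each gene in the 3 comparisons, with dots for the edgeR estimate, bars for its 95% interval and grey ticks for the values under the alternative settings. The intervals of Slc32a1 lie clear of 0 in both comparisons with Non Vulnerable rats before adjustment over all genes, and those of Gad1 and Gad2 include 0 throughout.

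The balance between the genes was then read within each rat, as a ratio of read counts, which does not depend on scaling between libraries. Transcript lengths were not used, so a ratio compares rats and not the abundance of one gene with another. The ratio of Slc32a1 to Gad1 was 0.421, 0.361 and 0.403 in Non Vulnerable rats 1 to 3. It was 0.257, 0.260 and 0.288 in Vulnerable rats and 0.291, 0.363 and 0.308 in Saline rats. Every Vulnerable rat lay below every Non Vulnerable rat and, narrowly for Vulnerable rat 3 (0.288) and Saline rat 1 (0.291), below every Saline rat, and only Saline rat 2 reached into the Non Vulnerable range.

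The Slc32a1 to Gad1 ratio averaged 0.395 ± 0.0306 for Non Vulnerable, 0.320 ± 0.0375 for Saline and 0.269 ± 0.0171 for Vulnerable rats (SD, n = 3). The log2 difference was -0.55 between Vulnerable and Non Vulnerable rats, where the exact two-sided permutation test gave p = 0.1, the smallest that 3 rats against 3 allow, and an adjusted p of 0.3 over the 9 ratio tests. Among all other genes, 10.4% had a ratio to Gad1 that was below the Non Vulnerable range in every Vulnerable rat, and 10.1% had one above it. Leaving out any one of the 6 rats gave log2 differences between -0.62 and -0.51. Non Vulnerable rat 1 had the highest ratio of the 9, at 0.421 against 0.403 in Non Vulnerable rat 3. Its Gad1 and Slc32a1 levels were each the lowest of its group. Leaving this rat out gave the smallest of these differences in size, -0.51.

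Vulnerable rats were also below Saline rats in the Slc32a1 to Gad1 ratio, by -0.25 on the log2 scale (exact permutation p = 0.1, adjusted p = 0.3), without overlap, as were 4.34% of other genes' ratios to Gad1. A further 0.53% were above the Saline range in every Vulnerable rat. Non Vulnerable rats were above Saline rats by 0.31 on the log2 scale, with overlap (exact permutation p = 0.2, adjusted p = 0.3). On this measure the Saline mean thus lay between those of the cocaine groups, while on the level of Slc32a1 alone it lay close to that of Vulnerable rats. For Vulnerable against Saline rats the fitted log2 fold change was 0.19 for Gad1 and -0.05 for Slc32a1. The lower ratio in Vulnerable rats thus went mostly with Gad1, and neither gene passed the test over all genes.

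Set against Gad2, the ratio of Slc32a1 was 0.223, 0.204 and 0.242 in Non Vulnerable rats and 0.171, 0.151 and 0.182 in Vulnerable rats. Saline rats, at 0.166, 0.216 and 0.193, overlapped both cocaine groups. The log2 difference of Vulnerable from Non Vulnerable rats was -0.41 (exact permutation p = 0.1, adjusted p = 0.3). It ranged from -0.48 to -0.34 with any one of the 6 rats left out. Of other genes, 3.9% had a ratio to Gad2 that was below the Non Vulnerable range in every Vulnerable rat. For 15.6% of other genes it was above that range in every Vulnerable rat. Differences from Saline were 0.22 in Non Vulnerable and -0.19 in Vulnerable rats, both with overlap (exact permutation p = 0.2 and 0.3, adjusted p = 0.3 and 0.338).

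The ratio of the decarboxylase genes to each other varied least. Gad1 to Gad2 was 0.665, 0.579 and 0.630 for Vulnerable, 0.530, 0.565 and 0.602 for Non Vulnerable and 0.572, 0.596 and 0.628 for Saline rats. The groups overlapped in all 3 comparisons, with log2 differences of 0.14, -0.08 and 0.06 for Vulnerable against Non Vulnerable, Non Vulnerable against Saline and Vulnerable against Saline (exact permutation p = 0.2, 0.3 and 0.4; adjusted p = 0.3, 0.338 and 0.4).

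**Figure D3:**
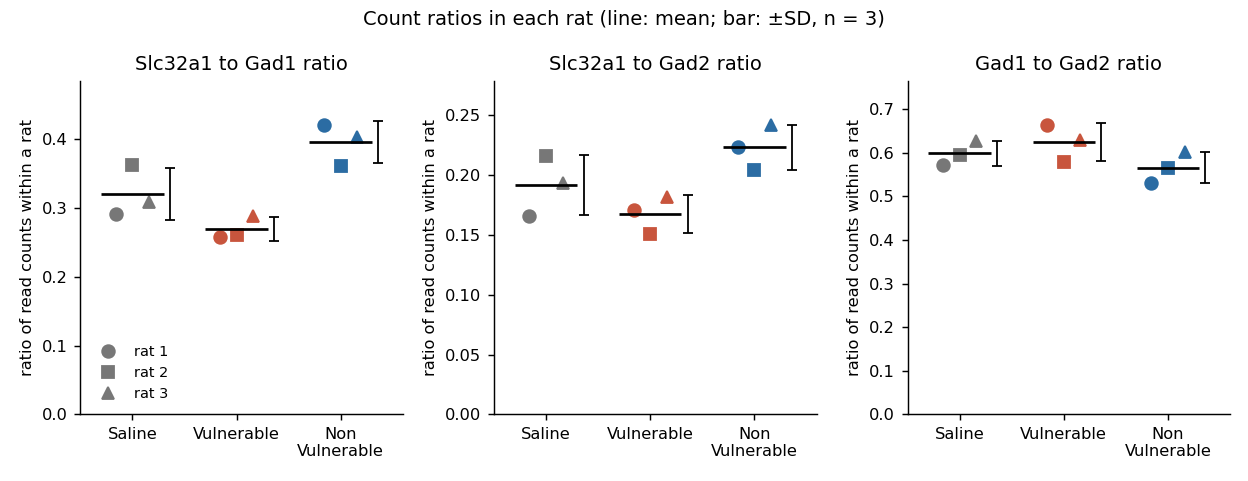
Ratio of read counts within each rat (linear axes from 0) for Slc32a1 to Gad1, Slc32a1 to Gad2 and Gad1 to Gad2, by group, with the mean (line) and ± SD (bar, n = 3). Vulnerable rats, at 0.257 to 0.288, lie below all other rats for Slc32a1 to Gad1, and the groups overlap for Gad1 to Gad2.

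Much of the variation of the 3 genes was between rats of a group and was shared. Gad1 and Gad2 ranked the rats almost alike, with Non Vulnerable rat 3, Vulnerable rat 2, Non Vulnerable rat 2, Saline rat 3 and Vulnerable rat 3 as the 5 highest in both. As deviations from the group means of log2 CPM over 9 rats, Gad1 followed Gad2 with r = 0.951 and Slc32a1 with r = 0.9, and Gad2 followed Slc32a1 with r = 0.85. These are descriptions; the genes of a rat share its library and its scaling factor. The coefficient of variation within groups was 16.6% to 20.8% for Gad1, 15.2% to 23.2% for Gad2 and 18.4% to 20.1% for Slc32a1.

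Counting error was far smaller than this spread. A rat had between 22035 and 45792 counts of Gad1, between 36976 and 72685 of Gad2 and between 7314 and 13206 of Slc32a1, which gives counting errors of 0.371% to 1.17%. Across the 4 technical replicates of a rat, the highest CPM exceeded the lowest by 0.459% to 8.06%. This agreement gives no measure of noise from steps that the replicates of a rat shared, and those steps were not checked. The SE of the 3 members, 0.196 to 0.201, was above the median SE of 0.144 over all genes.

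**Figure D4:**
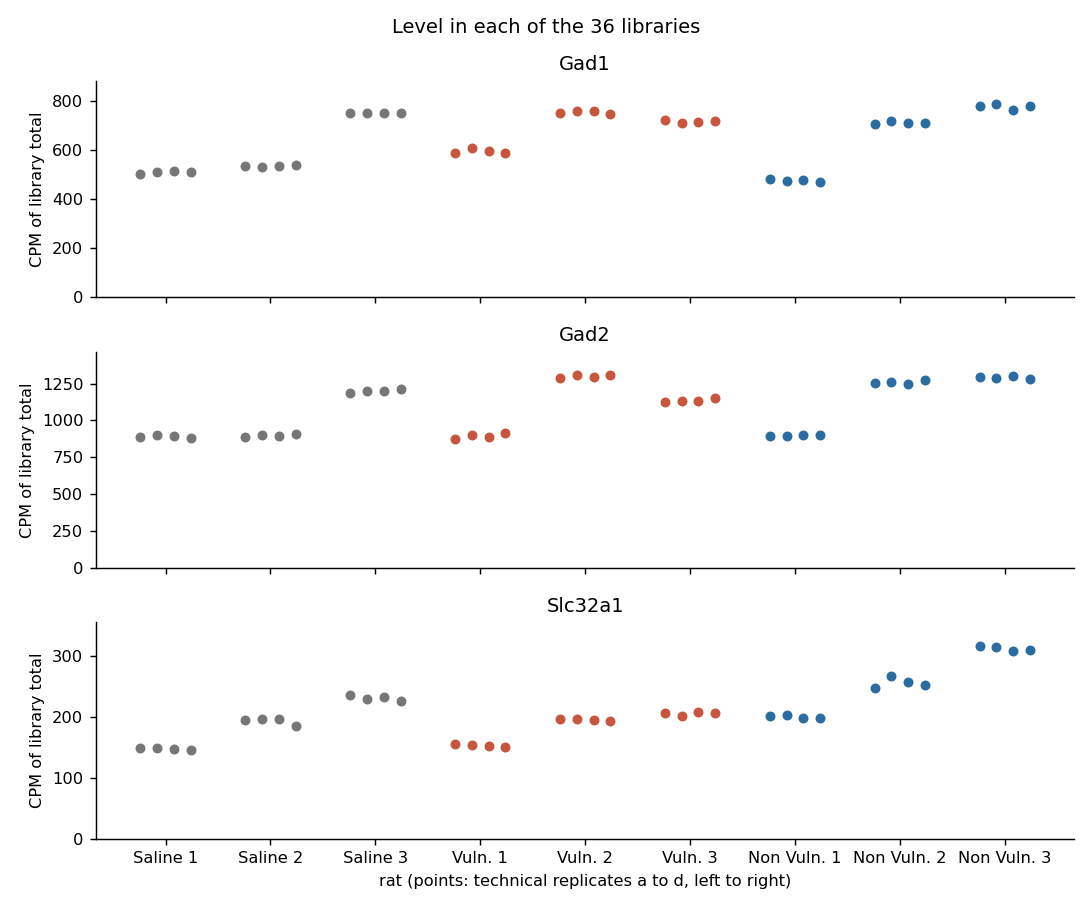
Level of the 3 genes in each of the 36 libraries, in CPM of the library total without a scaling factor (linear axes from 0), with the 4 technical replicates of each rat side by side. Technical replicates lie close together and most rats of a group lie apart, as for Slc32a1 at 201 and 313 CPM in Non Vulnerable rats 1 and 3, but Saline rats 1 and 2 overlap for Gad2.

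By the shared pattern of the 3 members over the 9 rats, taken as the mean of their standardised log2 CPM, the most alike of 9994 genes with a mean of at least 10 CPM were ENSRNOG00000001124 (r = 0.983) and ENSRNOG00000010819 (r = 0.979). The first averaged 134.6 ± 11 CPM for Non Vulnerable, 126.2 ± 10 for Vulnerable and 121.8 ± 6.92 for Saline rats (SD, n = 3). The second averaged 196.3 ± 24.9 CPM for Non Vulnerable, 168.4 ± 18.8 for Vulnerable and 166.4 ± 18.7 for Saline rats (SD, n = 3). The genes most opposite in pattern were ENSRNOG00000032238 (r = -0.981) and ENSRNOG00000027091 (r = -0.968). Their means for Non Vulnerable, Vulnerable and Saline rats were 13.56, 14.99 and 16.36 CPM, and 29.88, 34.28 and 35.37 CPM. These IDs carry no name in the files, and the likeness is a description picked as the extreme of many genes.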

How the data were processed

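Each of 36 libraries has a table deposited by the authors, with raw counts of reads by Ensembl gene ID. Tools named in the submitters' processing notes are HTSeq 0.5.3, STAR and bcl2fastq 2.17.1.14; the kit was strand-specific and polyA-selected, per the labels' protocols. The build, annotation and strand setting were not given in the sources used here. Counts were summed over technical replicates a to d, giving 3 rats per group. Averaged over genes with at least 40 counts, their chi-square per degree of freedom (1.004 to 1.02) was that of sampling noise. For single members in single rats it ranged from 0.0374 (Gad1, Saline rat 3) to 3.47 (Slc32a1, Non Vulnerable rat 2). No label says how the numbered rats were housed or processed, and effects of either were not tested. The edgeR p-values set group differences against the spread between these 9 rats, estimated over the 3 groups together. All genes passing filterByExpr were fitted with edgeR 4.0.16 in R 4.3.3 (TMM, robust glmQLFit, a coefficient per group, all 9 rats), with Benjamini-Hochberg adjustment over 16029 genes and a threshold of 0.05. SEs come from the quasi-likelihood F. Log2 CPM used a prior count of 2. Alternatives were median-of-ratios scaling, scaling without the 10 most counted genes, no filter, DESeq2 1.42.0, limma 3.58.1 (voom), only the compared groups, the rat number as a block, each rat left out and, chosen after seeing the data, library totals alone. The fit was tested on simulated data, and the outcome is not given here. The members and lists were chosen with earlier results of these data known. Symbols of the members come from the rule that chose them; 0 of 123 other listed symbols could be matched, so those lists were not analysed here. Named beside the members are the 2 genes of highest and the 2 of lowest correlation with their mean pattern. Sequences and positions come from RefSeq (GRCr8); 3 of 3 members matched by symbol. The motifs were chosen after the data were seen.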

Additional observations from a re-analysis of the deposited data

How the results depend on the processing

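Slc32a1 kept its direction against Non Vulnerable rats in all alternatives run. It passed the threshold for Vulnerable against Non Vulnerable with DESeq2 (log2 -0.55, adjusted p = 0.0244) and without Non Vulnerable rat 1; leaving out each rat gave -0.69 to -0.39, with edgeR adjusted p of 0.0334 to 0.174. With the rat number as a replicate block it was -0.58 (edgeR adjusted p = 0.00569), and 0.54 for Non Vulnerable against Saline (edgeR adjusted p = 0.0163). For Vulnerable against Non Vulnerable the SE of Slc32a1 was 0.0851 with the block and 0.199 without it. No label says whether same-numbered rats shared housing or processing, and this was not tested. Over all genes, deviations of same-numbered rats correlated from -0.137 to 0.19, and those of rats with different numbers from -0.239 to 0.191. A rat's best match in another group had its own number in 6 of 18 cases. These values do not settle whether the block is apt. With each rat left out, Slc32a1 ranged from 0.33 to 0.65 for Non Vulnerable against Saline and from -0.20 to 0.12 for Vulnerable against Saline. Gad1 in Vulnerable against Non Vulnerable rats turned to 0.011 without the 10 most counted genes in the scaling, 0.0691 with library totals alone and 0.0138 with only the compared groups, and ranged from -0.18 to 0.14 with a rat left out; Gad2 ranged from -0.33 to 0.0551, and from -0.022 to 0.32 for Vulnerable against Saline. Against Saline, Gad1 ranged from 0.0849 to 0.39 in Non Vulnerable and from 0.0798 to 0.40 in Vulnerable rats, and Gad2 from 0.19 to 0.43 in Non Vulnerable rats. The turns of Gad1 with scaling went with the median of all genes, which moved by 0.0461 and 0.124 in the first 2 of these settings; the cause of the others was not tested. No other call of a member changed. Counts of all genes called were 2798 to 5841 (Vulnerable against Non Vulnerable) and 251 to 3615 (Non Vulnerable against Saline) with a rat left out. Non Vulnerable against Saline gave 3747 with DESeq2 and 1164 with only the compared groups, and Vulnerable against Saline gave 30 with DESeq2 and 1 with library totals alone. Counting errors of these genes, 0.371% to 1.17%, were below the spread between rats.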

Other observations

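The rat labelled 1 had the lowest level of its group for all 3 genes in all 3 groups, by TMM-scaled CPM. For Gad2 in Saline rats this was close to a tie, at 883.8 CPM in rat 1 and 886.2 in rat 2. The 3 genes varied together within groups (r = 0.85 to 0.951), so they are not 3 separate observations. Over all 16029 genes tested, 8.51% had their lowest value in rat 1 of every group, and 15.7% had it in the same rat number, whichever it was. The labels give the number no meaning beyond naming a rat, and this was noticed after the values were seen.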
